A study of Mus musculus with 19 samples.

Results

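The subject is the C sites of misc RNA genes, the small noncoding RNAs that the deposited site table files under that biotype, such as the 7SL and 7SK RNAs. A site belongs if the first gene listed for it has this biotype, with no cutoff on any value. This gave 649 sites in 35 genes, out of 118890 distinct C sites in the table. They were measured in neural progenitor cells (NPCs) of the mouse cerebral cortex at embryonic day 17.5, plated on Matrigel and grown with the factors bFGF and EGF. One genotype was wild type (WT) and the other a conditional knockout (cKO) of Mettl8, a mitochondrial methyltransferase that makes 3-methylcytidine (m3C) in transfer RNA. For the Cre driver and the deleted exons the sources used here give nothing. HAC-seq libraries came from 4 WT and 3 cKO samples, and RNA-seq libraries from 6 WT and 6 cKO samples. Replicates are separate samples by their labels, but no label says whether they come from separate animals or dishes. The p-values therefore measure the spread among libraries only, and that spread may be technical.

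7SL RNA is the scaffold of the signal recognition particle, which binds the signal peptide of a growing protein chain and brings the ribosome to the endoplasmic reticulum. 7SK RNA holds the elongation factor P-TEFb in an inactive complex and so restrains transcription by RNA polymerase II. Y RNAs bind the Ro protein, and vault RNA is part of the large vault particle. These RNAs are made by RNA polymerase III, stay unspliced and are abundant in most cells. m3C is a methylated cytidine that hydrazine attacks in HAC-seq. Aniline then breaks the RNA at that place, so that reads from a modified molecule start just downstream of the cytidine.

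The cleavage ratio is the share of the reads covering a site that start there, and coverage is the number of those reads. No library without hydrazine was analysed here, so a read start made by cleavage and one made by the natural end of an RNA or by a break cannot be told apart. The authors kept a site only if more than 1 read started there in every WT library, which favours sites that are high in WT. The single site called over the whole table was a cytidine of mitochondrial mt-Tt, the threonine tRNA, with a ratio of 94.4% ± 0.483 in WT (SD, n = 4) and 2.10% ± 0.405 in cKO (SD, n = 3). RNA-seq levels are given in CPM, which are counts scaled to the library's total after adjustment by TMM. Mettl8 ran from 35.9 to 58.6 CPM in WT and from 59.3 to 80.9 in the libraries labelled cKO. The gene count was therefore higher in every library labelled cKO, with an edgeR adjusted p of 0.803, and where the reads lie relative to the deletion is unknown here. Summed levels of 9 progenitor markers, such as Nes, Sox2 and Fabp7, ran from 7440 to 11813 CPM in WT and from 7109 to 11409 in the libraries labelled cKO. Astrocyte markers were also present, from 3567 to 7846 CPM over all libraries, while the 5 microglial markers together ran from 1.32 to 7.76 CPM. The part of other cell types in the RNA-seq values below was not tested.

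Coverage of misc RNA sites was high. The median per library ran from 14115 reads in cKO replicate 2 to 25718 in WT replicate 1. Together the 649 sites held 8.73% to 9.04% of all site coverage in the WT libraries, and 10.1%, 8.69% and 6.42% in cKO replicates 1, 2 and 3. A minimum of 50 reads in every library was reached by 615 sites, and 34 fell short. The counting error of a single ratio depended on the site. At the first nucleotide of the 7SL gene Rn7s1, for example, the exact 95% interval of WT replicate 1 ran from 98.0% to 98.3%. At the highest site of Vaultrc5, covered by 56 to 139 reads, that of cKO replicate 1 ran from 69.6% to 91.1%. Such intervals cover counting error only, since no molecular identifiers are mentioned for these reads.

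5 genes matched RefSeq annotation (build GRCm38.p6), which placed 270 sites by nucleotide. Rn7s1 lies on chromosome 12 from 69159295 to 69159593 on the plus strand, and Rn7s2 on the same chromosome from 69361183 to 69361481 on the minus strand. Both are 7SL genes of 299 nt without introns. Rn7sk, the 7SK gene, lies on chromosome 9 from 78175302 to 78175633 on the minus strand (332 nt). Rny1 and Rny3, which encode the Y1 and Y3 RNAs, lie on chromosome 6 from 47788070 to 47788180 and from 47781624 to 47781724. Nucleotides below are those at which the reads start, counted from 1 at the RNA's first. The cytidine itself is the preceding base.

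Several genes showed nearly the same reads. All 61 sites of Rn7s2 had starts and coverage within 1% or 5 reads of a site of Rn7s1, as did 79.2% of the 77 sites of Rn7s1. The same held for 81.2% of the 69 sites of Gm24447 and 60.9% of the 92 sites of Rn7sk, always at the same spacing, so Gm24447 carries 7SK reads. Rn7s6 shared 6 of its 46 sites with Rn7s1. No 2 sites had identical values in all libraries. In all, 240 sites had such a partner, and the 649 sites form 526 groups, so values of these copies are not independent and the reads of each copy are uncertain.

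The ratios of misc RNA sites spanned nearly the whole possible range, and the highest include read starts at the first nucleotide of an RNA. Of the 615 covered sites, 204 had a mean ratio under 1%, 267 lay between 1% and 5%, 80 between 5% and 10%, 54 between 10% and 50%, and 10 above 50%. The median was 2.01%. Over the 605 sites under 50%, which share the same libraries, ratios were lower where coverage was higher (Spearman rho -0.45). Coverage is the denominator of the ratio, and the authors' minimum of read starts in WT removes low ratios at low coverage. This rho therefore cannot be read as a property of the RNAs.

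Of the 10 sites above 50%, 4 lay at the first nucleotide of an RNA by RefSeq. At nt 1 of Rn7s1 the ratio was 98.2%, 98.3%, 97.9% and 98.1% in WT replicates 1 to 4, and 98.4%, 98.1% and 98.2% in cKO replicates 1 to 3. Rn7s2 gave 98.2% ± 0.224 in WT (SD, n = 4) and 98.3% ± 0.160 in cKO (SD, n = 3) at nt 1. At nt 1 of Rny3 the WT values were 97.7%, 97.0%, 97.9% and 97.8%, and the cKO values 98.6%, 98.0% and 98.0%. The 2 groups did not overlap there, but the difference was under 1 percentage point. Its exact permutation p was 0.0571 (two-sided, 35 splits, unadjusted), and its adjusted p was 0.579 in the quasi-binomial fit over all sites.

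Rn7sk gave 96.7% ± 0.783 (SD, n = 4) and 96.3% ± 0.675 (SD, n = 3) at nt 1, and the matching start in Gm24447 gave 96.8% ± 0.685 and 96.5% ± 0.393. At the 4 starts that RefSeq places at nt 1 (Rn7s1, Rn7s2, Rn7sk and Rny3), the preceding cytidine is a base of the genome outside the annotated RNA, so these ratios do not report a cytidine of the RNA. Other sites above 50% were in genes that RefSeq did not place here. The vault RNA gene Vaultrc5 reached 89.6% ± 2.75 in WT and 88.5% ± 5.52 in cKO at its first listed site. A site in Gm26035 (chromosome X, 152923642) gave 96.6% ± 1.05 and 97.1% ± 0.378, and a site in Gm24514 gave 81.3% ± 2.78 and 80.0% ± 3.65. In Gm23624 (chromosome 9, 120791785) the ratio was 83.8% ± 5.06 in WT and 85.7% ± 2.27 in cKO. The last of the 10, in Gm26168 (chromosome 6, 122623554), gave 55.0% ± 2.84 and 50.3% ± 3.55, and all 3 cKO values lay below the 4 WT values. In Gm26035, Gm24514 and Gm26168 other listed sites lay further upstream, and in Vaultrc5 and Gm23624 none did.

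Inside 7SL, cleavage was low and followed position. The 76 internal sites of Rn7s1 had a median ratio of 1.40%, from 0.0405% to 7.14%, with 6 sites above 5% and 34 under 1%. Over nt 2 to 101 the median was 2.70% ± 0.130 in WT and 2.64% ± 0.105 in cKO. It was 1.28% ± 0.0234 and 1.37% ± 0.152 over nt 102 to 201, and 0.472% ± 0.0185 and 0.508% ± 0.0352 over nt 202 to 299 (SD, n = 4 and 3). The profile was much alike in the libraries, with a rho between 0.96 and 0.99 for any 2 of them over these 76 sites.

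The 6 internal 7SL sites above 5% were at nt 3, 18, 22, 23, 160 and 221. The highest, nt 221, had ratios of 7.65%, 7.59%, 7.17% and 7.79% in WT and of 6.68%, 7.94% and 5.17% in cKO. WT libraries lay close together there, and cKO replicate 2 exceeded them all. Neighbouring nt 22 and nt 23 gave 5.84% ± 0.384 and 6.05% ± 0.472 in WT against 5.51% ± 0.986 and 5.79% ± 0.963 in cKO, with overlapping groups. At nt 18 the ratio was 5.51% ± 0.107 in WT and 5.25% ± 0.483 in cKO. At nt 160 it was 5.67% ± 0.773 and 4.75% ± 0.669 (adjusted p = 0.607, quasi-binomial fit with limma's squeezed dispersions).

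**Figure D1:**
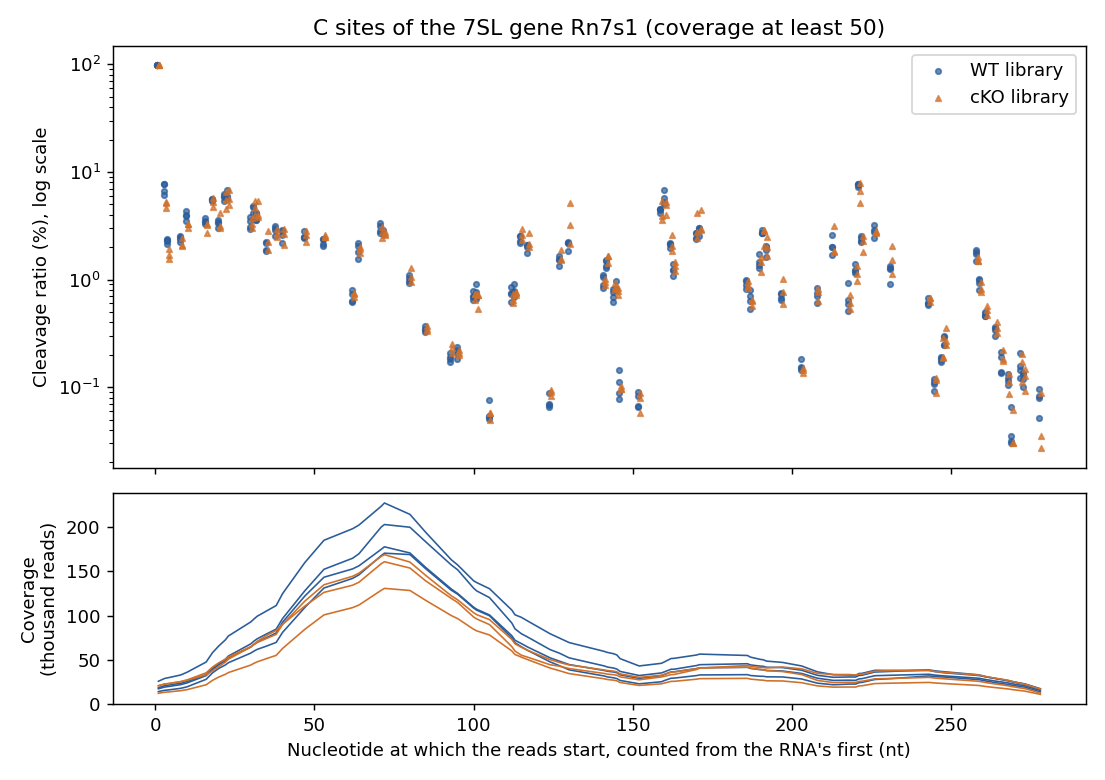
Upper panel, cleavage ratio (%, log scale) at each C site of the 7SL gene Rn7s1 against the nucleotide where reads start, with 1 point per library (blue circles WT, orange triangles cKO). Lower panel, coverage in units of 1000 reads, 1 line per library in the same colours. The ratio stands near 98% at nt 1 and between 0.0405% and 7.14% elsewhere on average, and coverage peaks at nt 72.

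In the quasi-binomial fit, nt 3 of 7SL had the lowest p of the tested misc RNA sites, in Rn7s1 and in Rn7s2. At nt 3 of Rn7s1 (chromosome 12, read start at 69159297) the WT ratios were 7.75%, 6.62%, 7.81% and 6.05%, and the cKO ratios 4.58%, 5.12% and 5.22%. All 3 cKO libraries lay below the 4 WT libraries. The means were 7.06% ± 0.866 (SD, n = 4) and 4.97% ± 0.347 (SD, n = 3), with coverage from 13580 to 29170. The exact permutation p was 0.0571 (two-sided, unadjusted), and the adjusted p over all 13240 tested sites was 0.518 (quasi-binomial fit, limma), so the site was not called. The matching nt 3 of Rn7s2 showed the same reads and is no second observation.

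Chosen after their values were seen, nt 4 and nt 10 of Rn7s1 also separated the groups. At nt 4 the ratios were 2.36%, 2.32%, 2.29% and 2.15% in WT and 1.70%, 1.93% and 1.56% in cKO. At nt 10 they were 4.33%, 3.95%, 3.52% and 3.89% in WT and 3.31%, 3.31% and 3.004% in cKO. Both sites had a mean ratio under 5% and did not enter the fit. In the fit that admitted sites from 1% upward, the smallest adjusted p of any misc RNA site was 0.0724, at nt 3. Among the 76 internal sites of Rn7s1, 3 were lower and 2 higher in cKO without overlap. Over all covered sites of the table, 4.28% were lower and 4.04% higher in this way. The mean was higher in cKO at 35 of the 76 sites.

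Coverage of 7SL was uneven along its length. It ran from 12343 to 25931 reads over the libraries at nt 1 and from 130818 to 227224 at nt 72, the most deeply covered misc RNA site. The ratio at nt 72 was 2.75% ± 0.110 in WT (SD, n = 4) and 2.67% ± 0.0862 in cKO (SD, n = 3). Nearby nt 71 gave 3.01% ± 0.296 and 2.75% ± 0.327, and nt 80 gave 1.01% ± 0.0806 and 1.10% ± 0.173. At none of these 3 sites did the groups separate.

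The copy Rn7s6 matched Rn7s1 at 44 covered positions. Over nt 2 to 101 its WT libraries lay above those of Rn7s1 without overlap at 17 of 20 sites and below at 0. Over nt 102 to 201 they lay below at 14 of 24 sites and above at 0. These libraries and part of the reads are the same for both genes, and the counts are a description chosen after the values were seen. At its read start 69516391 on chromosome 6, which matches 7SL nt 53, the ratios were 5.77%, 5.55%, 6.04% and 5.73% in WT and 7.01%, 6.09% and 7.80% in cKO. All 3 cKO libraries lay above the WT libraries, with 6.97% ± 0.853 against 5.78% ± 0.203. The exact permutation p was 0.0286, the smallest that 7 libraries allow, and the adjusted p was 0.518 (quasi-binomial fit, limma). Without cKO replicate 2 the adjusted p was 0.0364 and the site was called. At nt 53 of Rn7s1 the ratio was lower, 2.24% ± 0.185 in WT and 2.51% ± 0.0509 in cKO, with groups that also did not overlap. The nucleotide matching nt 47 showed the gap between the genes in WT as well, 10.1% ± 0.773 in Rn7s6 against 2.57% ± 0.186 in Rn7s1. Rn7s6 had no site above 50%, and its coverage near the 5′ end was low, from 106 to 219 reads at the position matching nt 23.

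Inside 7SK, cleavage was about as low as in 7SL but without the decline along the RNA. In WT the median was 1.24% ± 0.103 over nt 2 to 101, 1.44% ± 0.0656 over nt 102 to 201 and 1.30% ± 0.115 over nt 202 to 301 (SD, n = 4). In cKO it was 1.04% ± 0.264, 1.35% ± 0.159 and 1.31% ± 0.0173 (SD, n = 3). The 91 internal sites of Rn7sk had a median of 1.35%, with 6 sites above 5% and 35 under 1%, and 42 of the 91 had the higher mean in cKO. The highest pair was next to each other, at nt 38 and nt 39. At nt 38 the ratios were 9.40%, 9.76%, 9.50% and 9.28% in WT and 7.40%, 10.3% and 9.75% in cKO. At nt 39 they were 11.1%, 11.1%, 9.94% and 10.1% in WT and 13.7%, 10.2% and 11.98% in cKO. The WT libraries were close together at both, and cKO replicate 1 was the lowest of 7 at nt 38 and the highest at nt 39. Adjusted p values were 0.852 and 0.575 (quasi-binomial fit, limma).

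At nt 13 of Rn7sk the ratios were 4.76%, 5.33%, 5.63% and 5.88% in WT and 6.29%, 5.98% and 6.62% in cKO, without overlap (exact permutation p = 0.0571, adjusted p = 0.575). Gm24447 carries the same reads there. The remaining 7SK sites above 5% overlapped between genotypes, with 6.55% ± 1.13 against 7.34% ± 0.935 at nt 17, 5.32% ± 0.0842 against 5.03% ± 1.04 at nt 214, and 4.99% ± 0.373 against 5.06% ± 0.628 at nt 27. Among the 91 internal sites of Rn7sk, 4 were higher and 3 lower in cKO without overlap, beside 4.04% and 4.28% of all covered sites. The lowest ratios were at the 3′ end, down to 0.0226% at nt 295, where coverage stayed high.

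**Figure D2:**
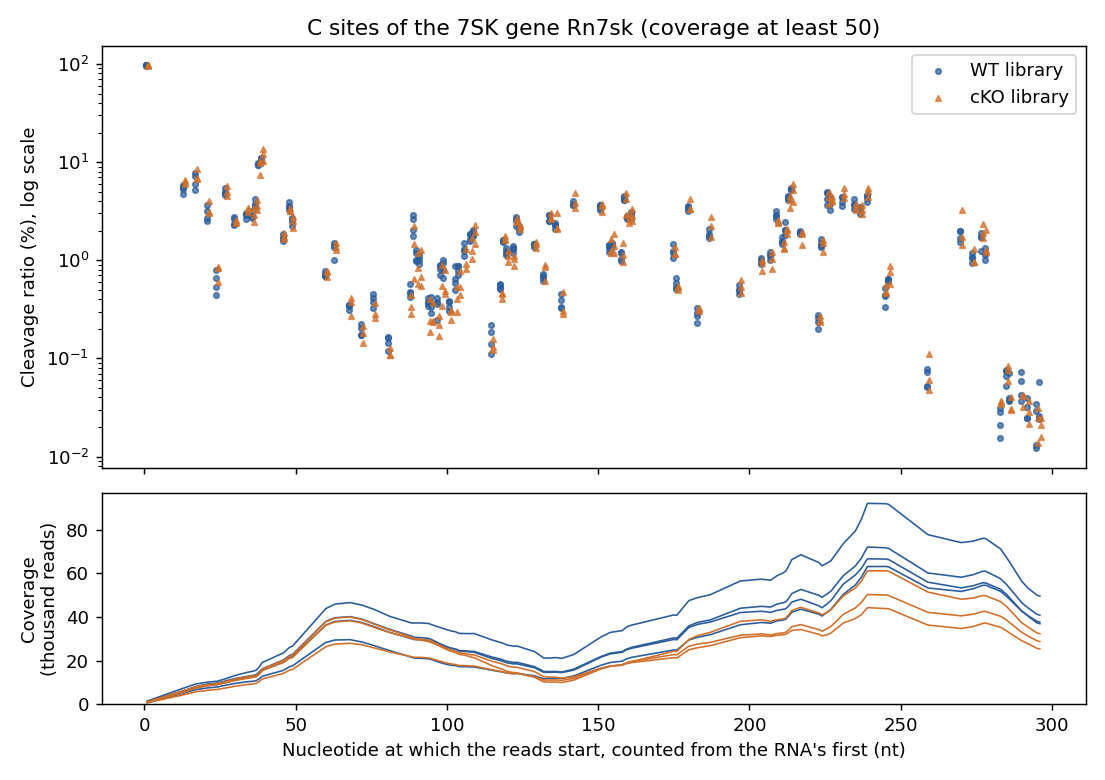
The same plot for the 7SK gene Rn7sk: cleavage ratio (%, log scale) by nucleotide in the upper panel, with blue circles for WT and orange triangles for cKO libraries, and coverage in units of 1000 reads below. Apart from nt 1, the highest values are at nt 38 and nt 39, near 9.34% and 11.2% on average.

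The 2 Y RNAs differed from each other. Rny1 had 23 sites, none at nt 1, with a median of 0.334% and a maximum of 3.27% at nt 53. At that site the ratios were 2.66%, 2.91%, 2.67% and 2.57% in WT and 5.55%, 2.79% and 3.75% in cKO, so that the groups overlapped through cKO replicate 2. Rny3 had 16 internal sites with a median of 0.941%. Its highest internal site was nt 31, with 10.6%, 9.86%, 8.35% and 10.2% in WT and 8.17%, 9.28% and 6.48% in cKO. The groups overlapped at nt 31, with means of 9.75% ± 0.982 (SD, n = 4) and 7.98% ± 1.41 (SD, n = 3), an exact permutation p of 0.114 and an adjusted p of 0.575. At nt 28 of Rny3 cKO replicate 1 stood apart with 9.10%, against 4.60% and 4.99% in the other cKO libraries and 4.24% to 5.21% in WT.

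cKO replicate 1 held the outlying value at several sites. Among 401 sites with a mean ratio from 1% to 50%, it was the highest of 7 by at least 1.5-fold at 8 sites and the lowest by that margin at 7. WT replicate 1 was the highest at 4 sites, and each other library at 0 to 2, while cKO replicates 2 and 3 were the lowest at 5 and 6. The 8 sites of cKO replicate 1 include nt 130 of 7SL, listed in 3 genes, where Rn7s1 had 5.14% against 1.85% to 2.23% in WT, 2.12% in cKO replicate 2 and 3.20% in cKO replicate 3. They also include nt 28, 42 and 52 of Rny3. These sites were chosen after their values were seen, and the part of this library in the means above was not tested beyond leaving it out.

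Vault RNA was covered far less. Vaultrc5 had 10 sites with 56 to 556 reads. Its 9 sites under 50% averaged 5.37% ± 0.359 in WT (SD, n = 4) and 5.04% ± 0.230 in cKO (SD, n = 3). None of its 10 sites separated the groups.

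Averaged over misc RNA sites, cleavage overlapped between the 2 genotypes. The mean over the 615 covered sites was 5.31%, 5.25%, 5.36% and 5.43% in WT and 5.24%, 5.18% and 5.43% in cKO. The groups overlapped, with 5.34% ± 0.0751 (SD, n = 4) and 5.29% ± 0.131 (SD, n = 3), a difference of -0.0505 percentage points. Over all 87065 sites of the table with such coverage, the means were 3.40% ± 0.130 and 3.51% ± 0.244.

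No misc RNA site passed the test. The quasi-binomial fit called 0 of 144 tested misc RNA sites at an adjusted p under 0.05, where 0.00755% of all 13240 tested sites were called. limma, run on arcsine-transformed ratios, also called 0. Without adjustment, 14 of the 144 misc RNA sites had a p under 0.05 with the higher mean in cKO and 9 with the lower. Of all 13240 tested sites 876 and 268 did (6.62% and 2.02%). With a ratio minimum of 1% these counts were 48 and 43 of 411, beside 3787 and 1881 of 76238. By limma they were 5 and 4 of 144, beside 791 and 251 of 13240. The groups did not overlap at 11 higher sites (7.64%) and 9 lower sites (6.25%), beside 5.43% and 2.03% of all tested sites. Over all 615 covered sites the counts were 27 and 22, where 4.04% and 4.28% of all covered sites separated. All these counts take copies as separate sites. Among the tested lower sites, for example, the same start of 7SL enters through Rn7s1 and again through Rn7s2. Gm22514 and Gm22344, whose read starts were nearly equal, both enter among the higher and among the lower sites. The part of such repeats in the shares above was not tested. Of the 144 sites 66 were higher in cKO (45.8%), beside 61.4% of all tested sites. Leaving out cKO replicate 1 gave shares of 54.6% and 55.9%. The median difference, cKO minus WT, was -0.16 percentage points over the 144 sites and 0.57 over all tested sites. Without cKO replicate 1 the median over misc RNA sites was 0.17 and without cKO replicate 2 it was 0.11, so its sign rests on single libraries. The authors' deposited table gives a p of its own, under 0.05 for 40 of the 649 sites (6.16%) and for 6.01% of the 118803 sites that have one, with 0.00464 as the smallest at a misc RNA site.

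**Figure D3:**
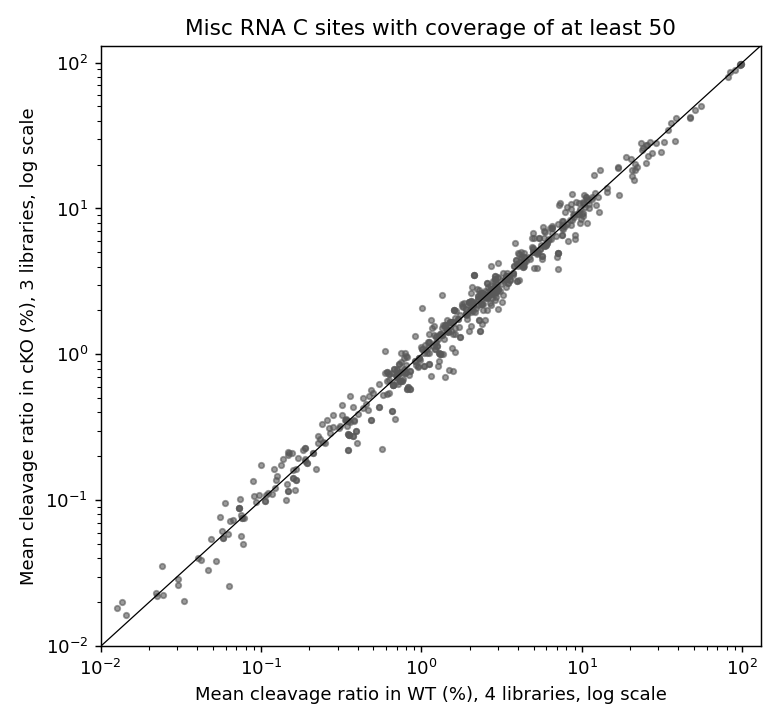
Mean cleavage ratio in cKO (3 libraries) against WT (4 libraries), both in percent on log scales, with 1 point for each of the 615 misc RNA sites with coverage of at least 50 and the line of equal values. Points follow the line from under 0.1% to above 90%.

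In 4 genes a pair of neighbouring cytidines separated the groups in opposite directions, a pattern noticed after the values were seen. In Gm23624 (chromosome 9) the upstream site, with read start 120791573, had ratios of 9.16%, 7.68%, 9.96% and 9.20% in WT and 5.95%, 5.56% and 7.01% in cKO. The downstream site, 120791572, had 7.12%, 6.80%, 6.87% and 8.60% in WT and 9.68%, 11.3% and 11.9% in cKO. The groups did not overlap at either, and the 2 ratios added up to 16.3% in WT and 17.1% in cKO. The upstream site had an exact permutation p of 0.0571, and the downstream site had an exact permutation p of 0.0286 and an adjusted p of 0.521 (quasi-binomial fit, limma).

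Gm22514 on chromosome 10 gave 9.04% ± 0.818 and 6.55% ± 0.523 at the upstream site, 78370115, and 7.22% ± 0.872 and 10.6% ± 1.57 at the downstream one, in WT and cKO. Gm22344 on chromosome 16 gave 10.8% ± 0.882 and 8.01% ± 0.745 at 93654520, and 8.67% ± 0.806 and 12.6% ± 1.78 next to it. Gm22967 on chromosome 17 gave 17.2% ± 2.22 and 12.4% ± 1.26 at 69594634, and 13.03% ± 1.78 and 18.4% ± 1.48 next to it. None of the 8 sites was called. Among neighbouring tested sites, 4 of 39 misc RNA pairs (10.3%) separated in opposite directions, and 7 of 2099 pairs elsewhere in the table (0.333%). The 4 pairs may not be independent. Their read starts in WT replicate 1 were 44 in Gm22514, 42 in Gm22344, 49 in Gm23624 and 35 in Gm22967 at the upstream site, and 34, 34, 41 and 31 at the downstream site. Gm22514 and Gm22344 differed by at most 2 starts in any library at either site. The table does not say how far these are the same reads.

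Gm25687 held the third smallest p among sites higher in cKO. At its site on chromosome 4 (54468358) the ratios were 7.56%, 9.81%, 7.99% and 8.78% in WT and 11.3%, 10.3% and 10.5% in cKO (exact permutation p = 0.0571, adjusted p = 0.558). The largest absolute difference of any covered misc RNA site was in Gm24105 (chromosome 5, 149248092), with 38.0% ± 7.74 in WT and 29.1% ± 7.21 in cKO, and the groups overlapped.

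**Figure D4:**
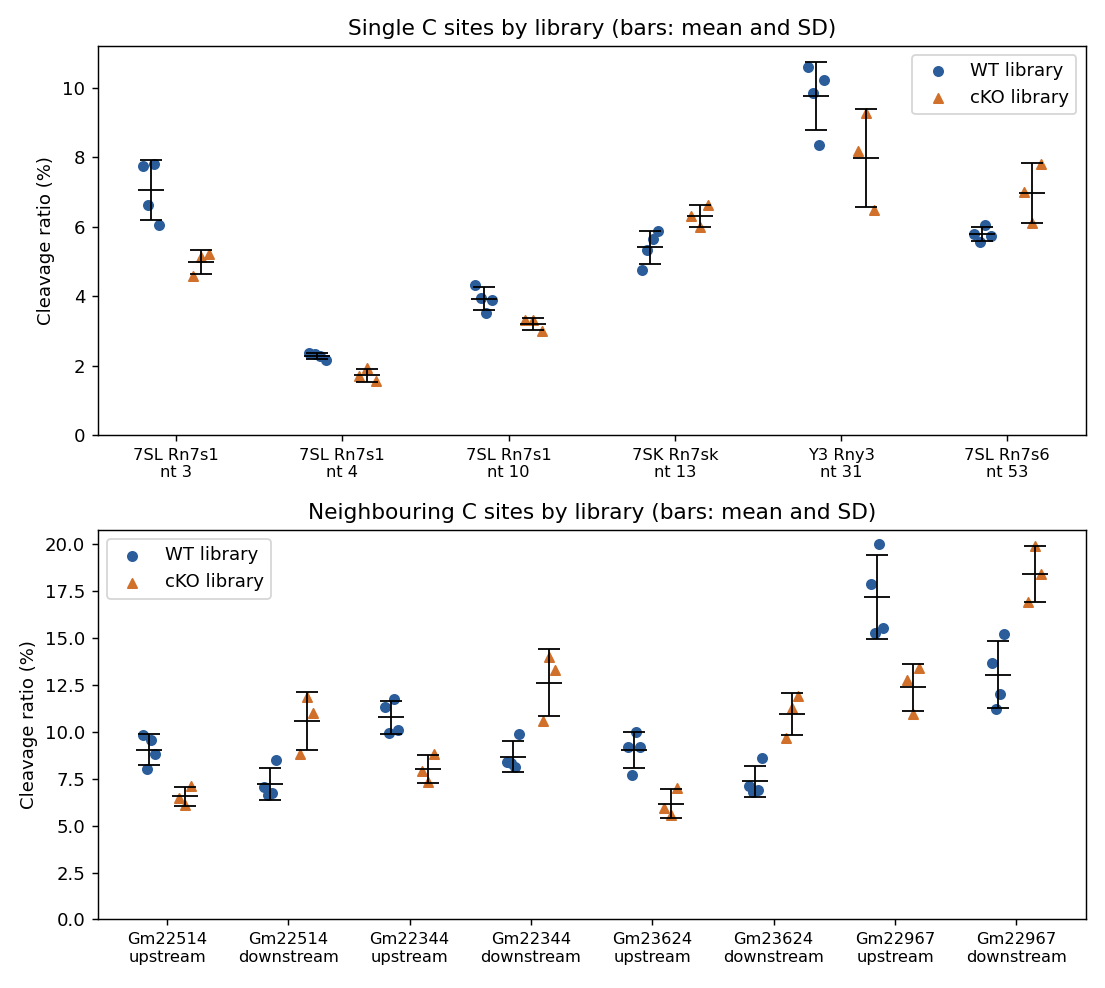
Cleavage ratio (%) by library at single C sites, with blue circles for WT, orange triangles for cKO, and bars for the mean and SD. The upper panel has 6 sites of 7SL, 7SK and Y3, most of them picked because their groups do not overlap, and the lower panel the neighbouring sites of 4 Gm genes. The groups overlap at nt 31 of Rny3 and separate at the other sites shown, and none was called over all sites. Of the 12 tested internal sites of Rn7s1 and Rn7sk 2 separated, nt 3 of Rn7s1 (lower in cKO) and nt 13 of Rn7sk (higher). Of all 13240 tested sites 719 were higher and 269 lower in this way (5.43% and 2.03%). The 2 sites are too few to set against these shares.

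Coverage served as a measure of how much of each RNA was in the libraries, at the most covered site of each gene and so without regard to length. Fewer cells of a type and less RNA per cell cannot be told apart in such bulk samples. For Rn7s1, coverage scaled by TMM to CPM was 18254, 17775, 19059 and 17840 in WT and 23382, 17712 and 16174 in cKO. cKO replicate 1 was the highest of 7 and cKO replicate 3, whose TMM factor of 0.775 was the lowest, had the lowest value. The log2 fold change was 0.07 (SE 0.14, edgeR adjusted p = 0.889). Rn7sk had 6871 ± 527 in WT and 6368 ± 387 in cKO (log2 fold change -0.11, SE 0.13, adjusted p = 0.782). Rny1 had 3958 ± 228 and 3917 ± 408, Rny3 had 1219 ± 167 and 1159 ± 123, and Vaultrc5 had 45.8 ± 10.7 and 40.9 ± 4.19, with log2 fold changes of -0.01, -0.07 and -0.16.

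Among the copies, Rn7s6 was covered less than Rn7s1 and Gm24447 less than Rn7sk, while Rn7s2 (18220 in WT) was close to Rn7s1. Rn7s6 had 12701 ± 990 in WT and 13152 ± 2636 in cKO. Gm24447 had 3748, 3849, 3775 and 3100 in WT and 5541, 3787 and 3849 in cKO, where cKO replicate 1 again stood highest (log2 fold change 0.28, SE 0.16, adjusted p = 0.527). edgeR called 0 of the 34 misc RNA genes tested, where 0.0165% of all 6051 genes were called, and DESeq2 called 0 of the 16 to which it gave an adjusted p. It gave none to the other 18, Vaultrc5 included. The remaining gene, Gm24105, had its top site in a stretch listed as miRNA. At an unadjusted p under 0.05, 4 of the 34 were higher and 0 lower in cKO, beside 302 and 355 of all 6051 genes (4.99% and 5.87%). The 4 were Gm23624, Gm22025, Gm22567 and Gm22982, named after their values were seen, with log2 fold changes from 0.35 to 0.54, and 0 genes reached that level without WT replicate 1 or without cKO replicate 1. The median log2 fold change was 0.07 over the 34 genes and -0.01 over all genes. Above 0 were 28 of the 34, beside 2895 of all 6051 genes. Without cKO replicate 1 only 18 of the 34 were, beside 2870 of 6115, and the median over the misc RNA genes was 0.0094. Without cKO replicate 3 the median was 0.23, and with the median over a gene's sites in place of the top site it was 0.22.

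**Figure D5:**
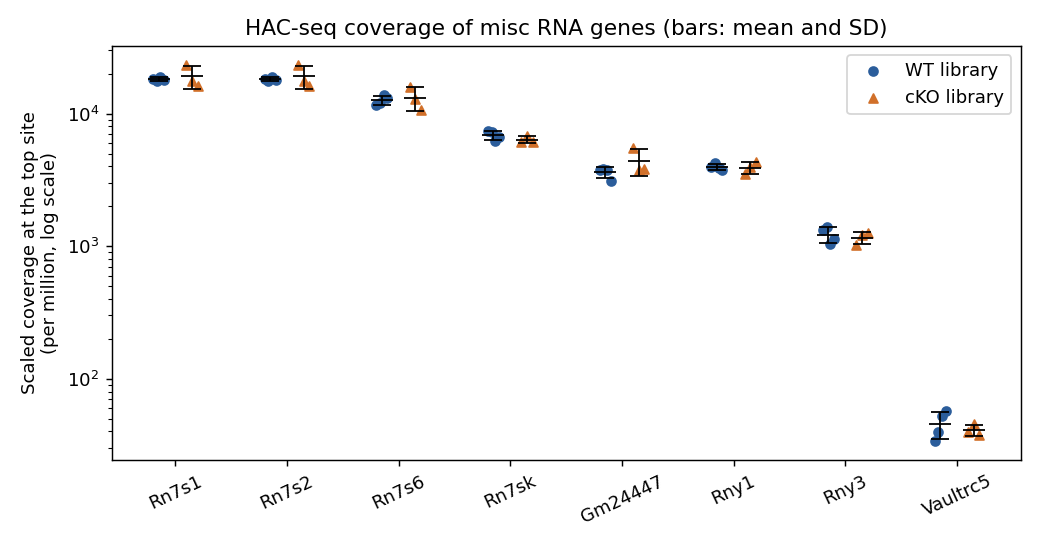
HAC-seq coverage at the most covered site of 8 misc RNA genes, scaled by TMM to CPM on a log scale, with 1 point per library (blue circles WT, orange triangles cKO) and bars for the mean and SD. Levels run from near 18232 for Rn7s1 down to 45.8 for Vaultrc5 in WT, and the groups overlap for the 8 genes.

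Of the 35 misc RNA genes, 4 were found by symbol in the RNA-seq table, and only Rn7sk had enough reads for the test. The library names divide the samples into 2 sets, and Rn7sk is given by set. In the first set Rn7sk had 26.3, 53.3 and 38.6 CPM in WT and 51.9 and 38.5 in the libraries labelled cKO. In the second it had 52.0, 36.1 and 42.1 CPM in WT and 28.1, 30.5, 32.1 and 23.3 in those labelled cKO. The groups overlapped in the first set and not in the second. How many of all genes separate in this way within a set was not counted. With the set as a covariate the log2 fold change was -0.27 (SE 0.21, edgeR adjusted p = 0.896), and the difference between sets had an adjusted p of 0.9999. Rny1, Rny3 and Vaultrc5 averaged under 1 CPM in both genotypes, for example 0.458 ± 0.223 and 0.507 ± 0.282 for Rny3.

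Genes of the proteins that work with these RNAs showed no called difference in RNA level either. edgeR called 0 of the 55 tested genes of the lists, Rn7sk included, beside 0% of all 13105 genes, where 372 had the higher and 405 the lower mean with an unadjusted p under 0.05 (2.84% and 3.09%). DESeq2 called 0 of 61 in the lists and 2 genes elsewhere. Of the genes of the signal recognition particle proteins that bind 7SL and of their receptor, 9 of 10 were tested. Of these, 4 were above 0, and the median log2 fold change was -0.01. Srp14, which with Srp9 forms the Alu-domain dimer, had 213 ± 17.2 CPM in WT and 202 ± 15.2 in the libraries labelled cKO, and Srp72 had 203 ± 11.7 and 207 ± 12.8 (SD, n = 6 each). Of 8 partners of 7SK, 6 were above 0 with a median of 0.05. Larp7, which binds the 3′ end of 7SK, had 104 ± 6.41 and 114 ± 16.3 CPM, and Ccnt2, a cyclin of P-TEFb, had 116 ± 13.4 and 122 ± 11.05.

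Of the Y RNA and vault partners 3 were tested, with a median of 0.10. Trove2, the Ro protein, had 641, 668 and 424 CPM in WT and 648 and 714 in the libraries labelled cKO of the first set. In the second set it had 376, 373 and 373 in WT and 422, 321, 370 and 392 in those labelled cKO. Within each set the genotypes overlapped. Ssb, the La protein that binds new polymerase III transcripts, had 474 ± 72.5 and 502 ± 86.2. For 9 genes of RNase P and RNase MRP proteins the median was 0.0066, with Rpp30 at 182 ± 19.0 and 194 ± 18.2 and Pop4 at 152 ± 6.81 and 153 ± 9.43. For 25 genes of the RNA polymerase III machinery it was -0.0083, with 12 above 0, and Polr3k, a subunit of the enzyme, had 475 ± 47.2 and 455 ± 42.6. Of all 13105 tested genes 6505 were above 0, and the median of all tested genes was -0.0010. In the lists 1 gene had the higher and 1 the lower mean with an unadjusted p under 0.05, named after their values were seen. These were Gtf3c2 of transcription factor TFIIIC (log2 fold change 0.17, adjusted p = 0.805) and Snapc5 of the small nuclear RNA activating complex (-0.20, adjusted p = 0.803), both by edgeR.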

How the data were processed

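HAC-seq and RNA-seq of the same kind of cultured cells were used. For both assays the submitters' processing notes name STAR 2.5.2a, Trimmomatic 0.32 and bcl2fastq 2.17.1.14, with the build GRCm38 (GRCm38.p6 for HAC-seq). No counting program is named there. The authors deposited, per site and library, the number of read starts (a signal), the read count covering the site and their quotient as a fraction, along with a p-value of the authors for each site, from an unnamed test. Per gene, the RNA-seq table deposited by the authors gives the raw count, with totals from 11830839 to 18863781. All sample columns were used (0 left out).

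Of 135582 table entries 16692 repeated a site. Sites entered the test at 50 or more reads in every library and a mean ratio from 5% upward, and were fitted by a quasi-binomial model of starts out of coverage, with dispersions squeezed by limma 3.58.1, not under 1, in R 4.3.3. Tests are two-sided with Benjamini-Hochberg adjustment over all sites or genes and a threshold of 0.05. Coverage (1 site per gene) and RNA-seq (library set as covariate) were tested by edgeR 4.0.16 quasi-likelihood with TMM, and DESeq2 1.42.0 was an alternative. Tables were joined in Python 3.11.15. On simulated data the cleavage fit recovered only a small part of the changed sites, so a site that was not called is not shown to be unchanged. Other coverage and ratio minimums, scalings, filters and left-out libraries were tried.

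Named sites were the 10 of highest ratio, the 6 of highest coverage, the 3 of smallest p in each direction and the tested 7SL and 7SK sites. RNA-seq genes were the 2 highest of each list and any called. Sites or genes outside this rule were picked after their values were seen. Members and lists were chosen with earlier results of these data known. HAC-seq replicate numbers did not pair the samples.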

Additional observations from a re-analysis of the deposited data

Results flagged for a closer look

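The highest or lowest library stood apart from the rest of its group by Dixon's criterion in 3 of the 63 groups checked, and chance flags about 1 group in 20. Groups of 3 libraries were not checked, so the HAC-seq cKO libraries had no such check. The site of Gm26168 at 122623554 had a ratio of 59.2% in WT replicate 4, above the other 3 WT libraries. Larp7 had 116 CPM in WT replicate 4, the highest of 6, and Rpp30 had 218 CPM in the same RNA-seq library.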

How the results depend on the processing

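The count of called misc RNA sites was 0 under coverage minimums of 20 and 100, a ratio minimum of 1%, limma, repeated signals taken once, and a dispersion trend on coverage chosen after seeing the data. Leaving out each library in turn gave 0 to 1 called sites: without cKO replicate 2 it was 1 (Rn7s6, difference 1.63 percentage points). Over all sites that setting called 16 higher and 6 lower, and the cause was not tested. Adjusted p values over these settings ran from 0.0724 to 0.741 for nt 3 of Rn7s1, from 0.0364 to 0.794 for the Rn7s6 site and from 0.162 to 0.815 for nt 31 of Rny3, and none of these differences changed sign. The difference of the mean ratio ran from -0.125 to 3.07e-05 percentage points with each library left out, and was 0.0627 for summed starts over summed coverage. No misc RNA gene was called for coverage (0 to 0), and no gene of the lists for RNA-seq (0 to 0), under any left-out library or other setting tried. With the replicate block, 0 misc RNA sites and 0 of these genes were called. Correlations of same-numbered HAC-seq libraries were -0.0079, -0.018 and 0.035, so the pairing is a number only.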
